A study of Bos taurus with 60 samples.

Results

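The miR-200 family was represented by 5 miRNAs in the deposited count table, namely bta-miR-200b, bta-miR-200a, bta-miR-429, bta-miR-200c and bta-miR-141. They were chosen by name out of the 608 bovine miRNAs listed, and all 5 passed the filter on low counts in every comparison. Small RNA was sequenced from frozen intestinal tissue of 10 British × Continental feedlot steers at 6 positions, which gave 60 libraries. The study also sampled the recto-anal junction, which it describes as the proposed primary site of E. coli O157 colonization. That region is not among these libraries. The small intestine was sampled in the duodenum and at the proximal and distal end of the jejunum, and the large intestine in the cecum, the spiral and the descending colon. The 5 non-shedders (NS) were negative for fecal E. coli O157, and the 5 super-shedders (SS) shed it in large numbers. The NS steers were pen-mates of the SS steers, no treatment was given, and the age is not stated in the sources used here. SS status was set before slaughter, and per the study's methods most of the SS steers no longer shed at that level on the day the tissue was taken. Each steer gave 1 library per region, so the replicate is the steer and the 6 libraries of a steer share an animal. Each library came from pieces of tissue that hold epithelium, muscle, vessels and immune cells together. A lower level can therefore mean fewer cells of a type or less miRNA per cell, and these cannot be told apart.

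miR-200 miRNAs are typical of epithelial cells. They bind the transcripts of ZEB1 and ZEB2, repressors of the cell adhesion gene CDH1, and are known in human and mouse for keeping cells in the epithelial state. The family has a pair of seeds, the bases that pair with a target, which differ by a single base: miR-200b, miR-200c and miR-429 carry one, and miR-200a and miR-141 the other. The genes lie in a pair of clusters. In the RefSeq annotation of the bovine assembly ARS-UCD2.0, all 5 members were matched, with MIR429, MIR200A and MIR200B next to each other between TTLL10 and C16H1orf159, and MIR141 and MIR200C next to each other beside PTPN6. Each cluster thus holds members of both seeds.

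The total count per library ranged from 535373 to 19346766, with a median of 1735055 (1945662 in NS and 1608076 in SS). The deepest libraries were the descending colon of NS108 and of SS310. A floor of 3 counts therefore lay between 0.155 and 5.60 CPM, which are counts scaled to a library of 1000000 counts, below the level of every member in nearly all libraries. The libraries of one group differed by far more than sampling noise in all 120 pairs compared, and none was counted as a repeat of another.

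All 5 miRNAs were abundant. Averaged over the 60 libraries, bta-miR-200b reached 4185 CPM and ranked 30 among the 608 miRNAs, and bta-miR-141 reached 2982 CPM and ranked 32. bta-miR-200a followed with 831 CPM (rank 59), bta-miR-429 with 662 CPM (rank 67) and bta-miR-200c with 526 CPM (rank 75). These are levels in reads. Small RNA libraries capture different sequences unevenly, so the order need not be that of the molecules. Together the members took 0.919% ± 0.587 (SD, n = 60) of all counts, with a range from 0.00406% to 2.64%. bta-miR-200b and bta-miR-141, which come from different clusters and carry different seeds, made up 77.7% ± 4.07 of the family's counts, between 68.3% and 87.0% in every library. bta-miR-200b was the leading member in 48 of the 60 libraries and bta-miR-141 in the other 12, of which 4 were duodenum libraries and none was a cecum library.

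The libraries of steer SS299 stood apart, and its values are given before the comparisons for that reason. In the proximal jejunum of SS299 the members were at 21.3 CPM for bta-miR-200b, 1.85 CPM for bta-miR-200a, 2.18 CPM for bta-miR-429, 3.35 CPM for bta-miR-200c and 11.9 CPM for bta-miR-141. The median of the other 9 steers was 137-fold to 380-fold higher. In the distal jejunum it was 31.8-fold to 48.2-fold higher, and in the duodenum 10.5-fold (95% Poisson interval 9.75 to 11.4) for bta-miR-200b to 39.9-fold (27.2 to 61.1) for bta-miR-200c. In the descending colon SS299 had 43 counts of bta-miR-200b, 24 of bta-miR-141, 4 of bta-miR-429, and 3 each of bta-miR-200a and bta-miR-200c. The ratio of the other steers' median to SS299 was 98.4 (73.0 to 136) for bta-miR-200b there, 379 (130 to 1840) for bta-miR-200a and 161 (55.2 to 782) for bta-miR-200c. These intervals cover counting error only. In each of these 4 libraries and for each member, all 9 other steers were higher.

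The members were not low in the other regions of this steer. In its cecum bta-miR-200a (2109 CPM), bta-miR-200c (1439 CPM) and bta-miR-141 (8950 CPM) were the highest of the 10 steers, and in its spiral colon all 5 members were within the range of the other 9. The family's summed level in SS299 thus ran from 40.6 to 24206 CPM over its 6 regions, a ratio of 596. The next widest ratio, in SS274, was 18.2.

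Markers of other cells were read beside these values. The other intestinal epithelial miRNAs (bta-miR-192, bta-miR-194, bta-miR-215, bta-miR-375, bta-miR-183, bta-miR-182 and bta-miR-96) summed to 1503 CPM in the proximal jejunum of SS299, against 75764 to 286363 CPM in the other 9. In its distal jejunum they summed to 2361 CPM against 58369 to 317414 CPM, and in its descending colon to 2802 CPM against 17319 to 279749 CPM. All 7 were detected there. The summed level of the 5 leukocyte miRNAs was also below all 9 others in these 3 libraries (351, 178 and 856 CPM). Each of the 5 was below all 9 in both jejunum libraries, whereas in the descending colon bta-miR-155 was exceeded by 5 of the 9, bta-miR-150 by 7 and bta-miR-223 by 8. The summed level of the 5 smooth muscle miRNAs, nearly all of it bta-miR-143, was above all 9 in the proximal jejunum (595667 CPM) and above 8 in the distal jejunum (562792 CPM), but below 8 in the descending colon (332805 CPM). bta-miR-145 of this list was exceeded by 3 of the others in the proximal and by 4 in the distal jejunum. The mesenchyme list was below all 9 in both jejunum libraries (3434 and 1263 CPM), and the neuron list in all 4 low libraries of SS299 (6.32 to 73.1 CPM) and in its cecum. Of the mesenchyme list only bta-miR-199a-3p and bta-miR-199c were below all 9 in the proximal jejunum, with nearly the same counts (6506 and 6504). There bta-miR-199a-5p and bta-miR-199b were each exceeded by 2 of the 9, and bta-miR-214 by 7. In the distal jejunum the endothelial list (2070 CPM against at least 3775) and the red blood cell list (193 CPM against at least 265) were below all 9 as well. In the descending colon the 3 red blood cell miRNAs reached 14942 CPM against at most 1438 CPM. In the spiral colon of SS299 the leukocyte, endothelial, mesenchyme and red blood cell lists were above all 9 (15244, 13289, 8096 and 659 CPM). The smooth muscle list was below all 9 there (268588 CPM), and the other epithelial list was within their range. In its cecum bta-miR-96, bta-miR-183 and bta-miR-182 were above all 9 (214, 828 and 4404 CPM), and the summed epithelial list was within range. Both libraries stayed in the fits without the 4 low libraries. The part of these cell types in the low miR-200 counts was not tested.

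The library labelled as duodenum of SS299 differed in another way and went against its label. There the summed level of the other epithelial list (207182 CPM) was within the range of the other 9 steers, but through bta-miR-192 alone (201462 CPM). bta-miR-215, which carries the same seed as bta-miR-192, was 26.9-fold lower than the median of the other 9, and bta-miR-375, a miRNA of enteroendocrine and other secretory cells, was 88.1-fold lower. bta-miR-183 and bta-miR-182 were also below all 9, by 3.21-fold and 2.10-fold from the median, while bta-miR-194 (1.68-fold below the median) and bta-miR-96 (1.05 times the median) were within the range of the others. The summed smooth muscle miRNAs were below all others (84146 CPM against 173354 to 604899). The endothelial list (22344 CPM against at most 11058) and the red blood cell list (1838 CPM against at most 839) were above all others. bta-miR-122, the defining miRNA of hepatocytes, was at 11827 CPM in this library and between 0 and 51.9 CPM in the other 59. It was looked up after the values of this library had been seen. Most tests of the members that include the 4 low libraries of SS299 are also given without them, or without this steer for SS against NS. These libraries were left out because the members were low in them, after the values had been seen. The adjusted p without them are therefore not independent of that choice and describe the remaining libraries.

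**Figure D1:**
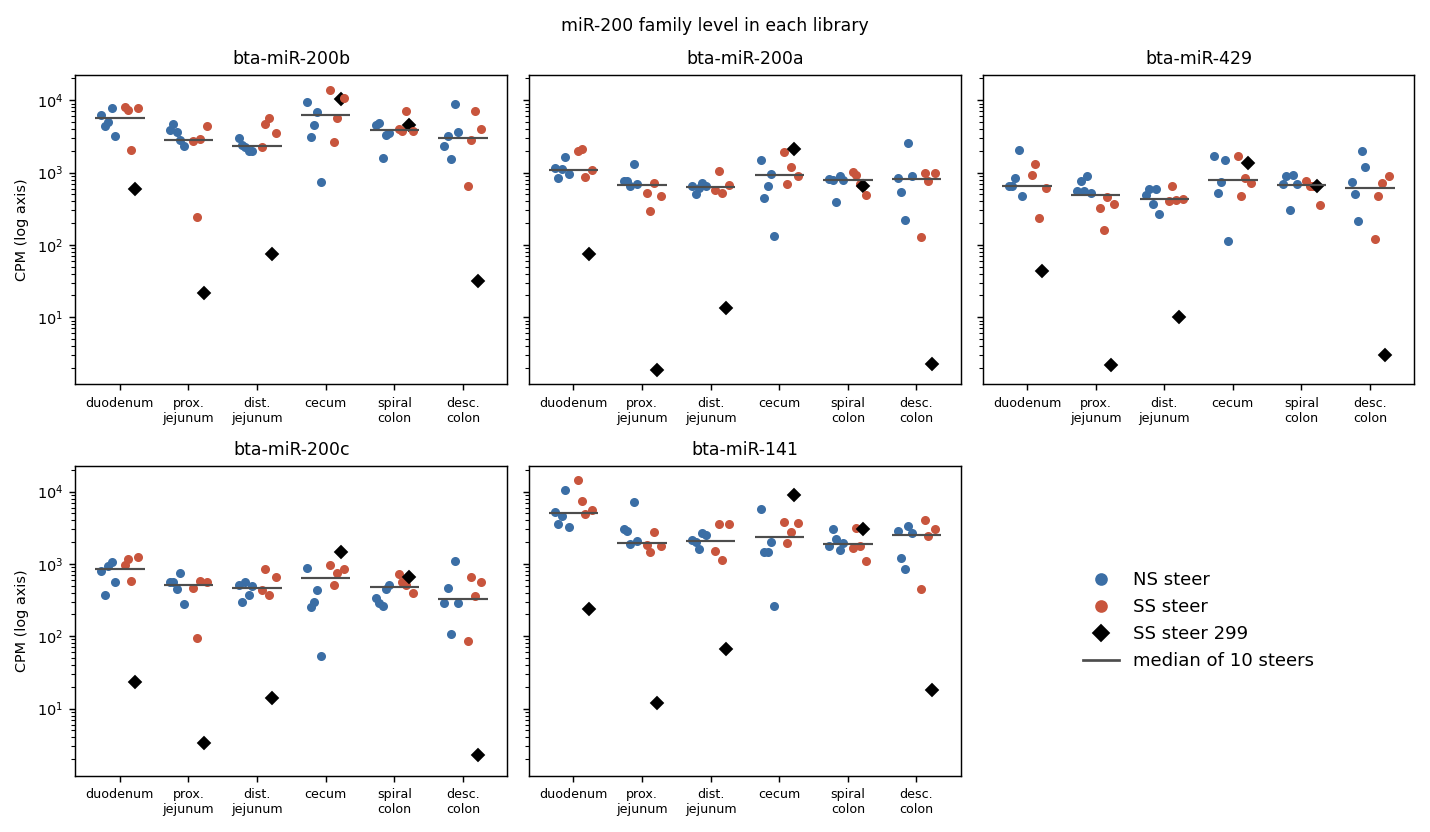
Level of each miR-200 member in CPM (log axis) in every library, by region, with 1 point per steer, NS in blue, SS in red, steer SS299 as a black diamond, and the median of the 10 steers as a line. The 4 low libraries of SS299 lie below all other points of their region. Its cecum is the highest point for bta-miR-200a, bta-miR-200c and bta-miR-141, and its remaining cecum and spiral colon points lie among those of the other steers.

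**Figure D2:**
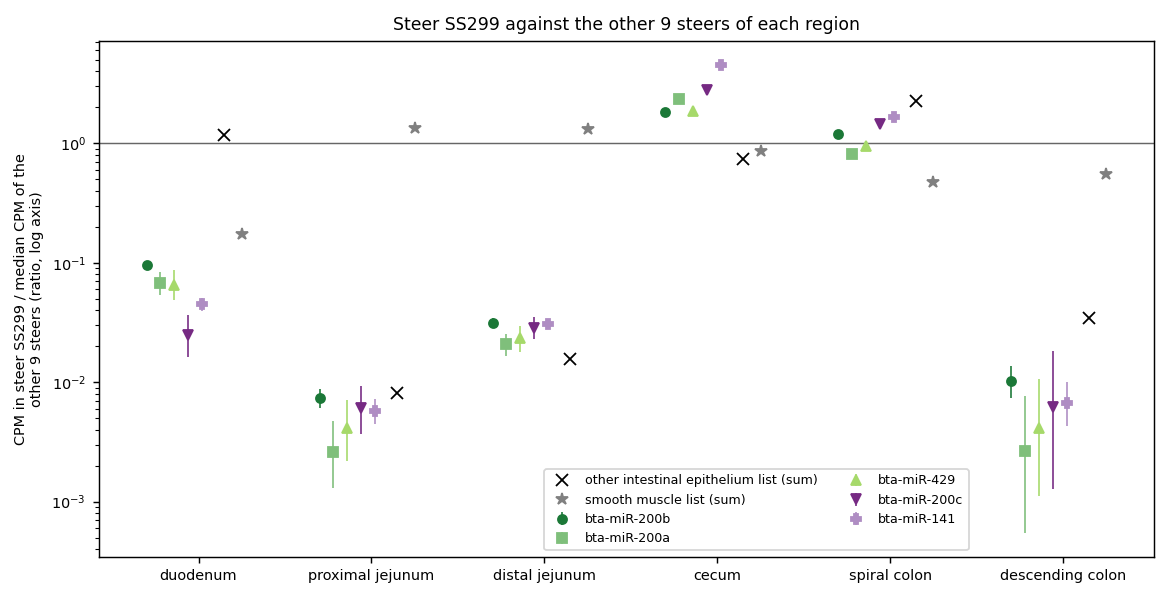
CPM in steer SS299 divided by the median CPM of the other 9 steers of the same region (log axis; bars, 95% Poisson intervals of the SS299 count), for the 5 members and for the summed levels of the other intestinal epithelial list and the smooth muscle list. The members fall to between 0.0026 and 0.095 in 4 regions, and the epithelial list falls with them in 3 of these. In the library labelled duodenum its sum does not fall, but nearly all of that sum is bta-miR-192.

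Over all steers the family had its highest mean levels in the duodenum and the cecum. Duodenal libraries gave it 1.39% ± 0.755 of all counts (SD, n = 10 here and for each region below), and cecal libraries 1.26% ± 0.766. The jejunum had a share of 0.676% ± 0.362 at its proximal and 0.633% ± 0.277 at its distal end, and the colon 0.810% ± 0.180 in its spiral and 0.737% ± 0.523 in its descending part. Without SS299 the summed mean was 15383 CPM in the duodenum, 7506 and 7008 CPM in the jejunum, 11333 CPM in the cecum, and 7943 and 8181 CPM in the colon. The order differed with phenotype as a description. The NS medians were 12568 CPM in the duodenum, 8867 and 5895 CPM in the jejunum, 7762 CPM in the cecum, and 7456 and 7070 CPM in the colon. By median the cecum of NS steers thus did not stand above the proximal jejunum. By mean it did, slightly, with 9133 CPM (SD 6726) against 8874 CPM (SD 2647). The SS medians were 16204 CPM for the duodenum, 5869 and 8103 CPM for the jejunum, 16758 CPM for the cecum, and 9054 and 8896 CPM for the colon.

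bta-miR-141 was the only member that passed the test as lower in the jejunum than in the duodenum with all libraries. Its level in the duodenum ran from 236 CPM (SS299) over a median of 5106 to 14468 CPM (SS274), and the next lowest steer, NS745, was at 3201 CPM. In the proximal jejunum it ran from 11.9 over 1963 to 7104 CPM (NS242), and in the distal jejunum from 66.2 over 2071 to 3528 CPM. The levels overlapped between regions through SS299, NS242 and a few others. The log2 fold change was -1.45 (SE 0.49, adjusted p = 0.0794) from the duodenum to the proximal jejunum and -1.65 (SE 0.50, adjusted p = 0.0344) to the distal jejunum, in edgeR's quasi-likelihood test with Benjamini-Hochberg adjustment over 381 miRNAs at an FDR of 10%. In each of these comparisons 9.45% of the 381 miRNAs passed. The other 4 members had log2 fold changes from -0.92 to -1.11 in both and did not pass (adjusted p 0.149 to 0.291). The 4 low libraries of SS299 were chosen on the levels of these same members. Without them, all 5 members were lower in both parts of the jejunum than in the duodenum (adjusted p 0.000137 to 0.077, edgeR). The log2 fold changes were -1.43 and -1.62 for bta-miR-141 and -0.85 to -1.09 for the others. With the steer as a block, only bta-miR-141 passed in each (adjusted p = 0.0997 and 0.039). Its call was lost when libraries were scaled by their totals alone (-1.36 and -1.52, adjusted p = 0.204 and 0.133), and in both comparisons without NS108, NS242 or SS274 (adjusted p 0.113 to 0.176). For the proximal jejunum it was also lost with no filter (adjusted p = 0.104) and without NS152, NS165, SS287 or SS310 (0.116 to 0.180), so that it passed in 9 of 18 alternatives there and in 14 of 18 for the distal jejunum.

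bta-miR-200b and bta-miR-429, members of the same cluster with the same seed, were higher in the cecum than in the jejunum, in calls close to the threshold. bta-miR-200b ran from 736 CPM (NS745) over 6233 to 13784 CPM (SS274) in the cecum, from 21.3 over 2847 to 4677 CPM in the proximal jejunum and from 75.2 over 2328 to 5644 CPM in the distal jejunum. The spread of the cecum covered the whole range of the jejunum other than the low end set by SS299 and SS287. Its log2 fold change from the distal jejunum was 1.42 (SE 0.51, adjusted p = 0.0755, edgeR), where 12.3% of the miRNAs passed. bta-miR-429 rose by 1.37 (SE 0.49, adjusted p = 0.0755) in the same comparison. From the proximal jejunum to the cecum, where 10.8% passed, bta-miR-200b rose by 1.40 (adjusted p = 0.0812) and bta-miR-429 by 1.37 (adjusted p = 0.0783). These calls held in 7 to 9 of 18 alternatives, with log2 fold changes above 1 in the others. They were lost by library totals (adjusted p 0.173 to 0.192), with no filter (0.101 to 0.116), without NS108, NS152, NS165, NS242, NS745 or SS274 (0.107 to 0.233), and in part after thinning and without SS287 or SS310. They held without the 4 low libraries of SS299 (1.14 to 1.19, adjusted p 0.00627 to 0.0134).

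bta-miR-200a, which lies between them in the cluster but has the other seed, had a log2 fold change of 0.96 from the distal jejunum to the cecum and 0.97 from the proximal jejunum (adjusted p = 0.213 and 0.202). It passed in both with the steer as a block (1.41 and 1.37, adjusted p = 0.0586 and 0.069) and without the 4 low libraries (0.74 and 0.76, adjusted p = 0.0325 and 0.0212). bta-miR-200c and bta-miR-141 passed in neither comparison under either of these. Their values without the 4 libraries were 0.37 and 0.54 from the distal jejunum, and 0.41 and 0.35 from the proximal jejunum.

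No member differed between the proximal and the distal jejunum, where log2 fold changes lay between -0.20 and 0.03 and 0% of the miRNAs passed (10 at an unadjusted p under 0.05). Between the cecum and the spiral colon, where 0.525% passed, and between the spiral and the descending colon, where 0.262% passed, no member passed either. The former log2 fold changes were -0.17 to -0.52 and the latter -0.07 to -0.42, with SEs of 0.47 to 0.50. These errors leave room for changes of the size seen after the duodenum. No member passed in any of these comparisons under the 18 alternatives, among them the fits without the 4 low libraries of SS299. From the duodenum to the descending colon bta-miR-141 fell by 1.30 (SE 0.49, adjusted p = 0.0728) on the log2 scale, against a background of 16.8%. This call was lost by library totals, with no filter, after thinning and without NS108, NS152, NS165, NS242, SS274 or SS294 (adjusted p 0.103 to 0.349). bta-miR-429 was at -0.10 (SE 0.48) over the same distance. Without the 4 low libraries bta-miR-200c also passed there (-0.85, adjusted p = 0.0437).

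Ordered by mean level over all steers, bta-miR-141 fell in the order duodenum, cecum, proximal jejunum, spiral colon, descending colon and distal jejunum (5953, 3191, 2485, 2113, 2082 and 2070 CPM). The last 4 lie within 415 CPM of each other, with SDs from 697 to 1843 CPM. bta-miR-200c followed the order duodenum, cecum, spiral colon, distal jejunum, proximal jejunum and descending colon (769, 640, 470, 458, 427 and 390 CPM). For bta-miR-200b the cecum came first, then the duodenum, spiral colon, descending colon, distal jejunum and proximal jejunum (6772, 5258, 4115, 3421, 2777 and 2769 CPM). bta-miR-429 also had its highest mean in the cecum, with 966 CPM against 778 in the duodenum, 686 in the descending colon, 662 in the spiral colon, and 459 and 421 at the proximal and distal end of the jejunum. bta-miR-200a was at 1183 CPM in the duodenum and 1051 CPM in the cecum, with means of 599 to 790 CPM elsewhere. Without SS299 the cecum of bta-miR-141 moved from the second to the third place (2551 CPM, after 6588 CPM in the duodenum and 2759 CPM in the proximal jejunum). bta-miR-200b (6376 CPM) and bta-miR-429 (921 CPM) still had their highest mean in the cecum, and bta-miR-200a (1307 CPM) and bta-miR-200c (852 CPM) in the duodenum.

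Between the duodenum and the cecum, where 14.7% of the miRNAs passed, no member passed with all libraries (log2 fold changes from -0.90, SE 0.49, for bta-miR-141 to 0.45, SE 0.48, for bta-miR-429, adjusted p 0.242 or more). For bta-miR-141 this rested on SS299, the lowest steer in the duodenum and the highest in the cecum. Without its 4 low libraries bta-miR-141 was lower in the cecum by -1.08 (SE 0.29, adjusted p = 0.00658), and by -1.27 (SE 0.29, adjusted p = 0.00124) without the steer. The other 4 members did not pass in either.

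Taken over all 6 regions in a single F test, the difference between regions passed for 1 member, bta-miR-141 (adjusted p = 0.0599), when 30.4% of the miRNAs passed. The adjusted p was 0.108 for bta-miR-200b, 0.118 for bta-miR-429, 0.224 for bta-miR-200a and 0.392 for bta-miR-200c. With the steer as a block 4 members passed, all but bta-miR-200c, against a background of 39.6%. Without the 4 low libraries of SS299 all 5 passed (adjusted p from 0.000103 for bta-miR-141 to 0.0443 for bta-miR-200c), against 41.7%. Without NS108, NS152, NS165, NS242, SS274 or SS310 in turn none passed.

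bta-miR-429 was the only member that passed as higher in the large than in the small intestine with all libraries and no steer block. The mean of the 3 large intestinal regions exceeded that of the 3 small intestinal regions by 0.76 on the log2 scale (SE 0.28, adjusted p = 0.0419), while 31.2% of the miRNAs passed. The value was 0.58 for bta-miR-200b (adjusted p = 0.139), 0.37 for bta-miR-200a, 0.04 for bta-miR-200c and -0.11 for bta-miR-141. With the steer as a block bta-miR-429 (0.94, adjusted p = 0.0107) and bta-miR-200b (0.76, adjusted p = 0.038) passed, against 35.2%. Without the 4 low libraries both passed again (0.66 and 0.47, adjusted p = 0.00321 and 0.058), against 43.0%. The median over all 381 miRNAs was -0.01 in this comparison and -0.23 when libraries were scaled by their totals alone. On that scale bta-miR-429 was at 0.54 and did not pass (adjusted p = 0.231). Without NS108 or NS242 no member passed.

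The other intestinal epithelial miRNAs did not share 1 direction along the intestine. Of these 7, bta-miR-375 rose from the small to the large intestine (0.74, SE 0.32, adjusted p = 0.0825) and bta-miR-215 fell (-2.06, SE 0.39, adjusted p = 0.000114), and the list's median was -0.02. Of the 5 mesenchymal miRNAs 3 were higher in the large intestine (bta-miR-199a-3p, bta-miR-199a-5p and bta-miR-199c, list median 0.28), and 4 were higher in the cecum than in the duodenum. Across all miRNAs 31.2% passed in the former comparison and 14.7% in the latter. bta-miR-199a-3p and bta-miR-199c, called in both, had nearly the same counts in each library of SS299 (5168 and 5167 in its cecum). They are therefore close to 1 signal counted 2 times in these numbers and in the sums of the mesenchyme list. Of the 3 red blood cell miRNAs 1, bta-miR-486, was higher in the large intestine. Its level in the descending colon of SS299 was 13950 CPM, against at most 1306 CPM in the other steers there. These list calls are given with all libraries only. Of the 5 smooth muscle miRNAs 1, bta-miR-133a, was higher in the large intestine, and of the 5 leukocyte miRNAs 3 were lower (bta-miR-142-3p, bta-miR-142-5p and bta-miR-155). The medians of these last lists were 0.44 and -0.54. bta-miR-205, a miRNA of stratified epithelium, was higher by 2.56 (SE 0.41, adjusted p = 1.45e-05), at levels of at most 31.0 CPM. The part of these cell types in the regional levels of the miR-200 family was not tested. From the duodenum to the proximal jejunum bta-miR-375 was the only one of the 7 other epithelial miRNAs that passed (-1.65, SE 0.56, adjusted p = 0.0794, edgeR). The median of this list was -0.64 there, and 9.45% of all miRNAs passed.

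**Figure D3:**
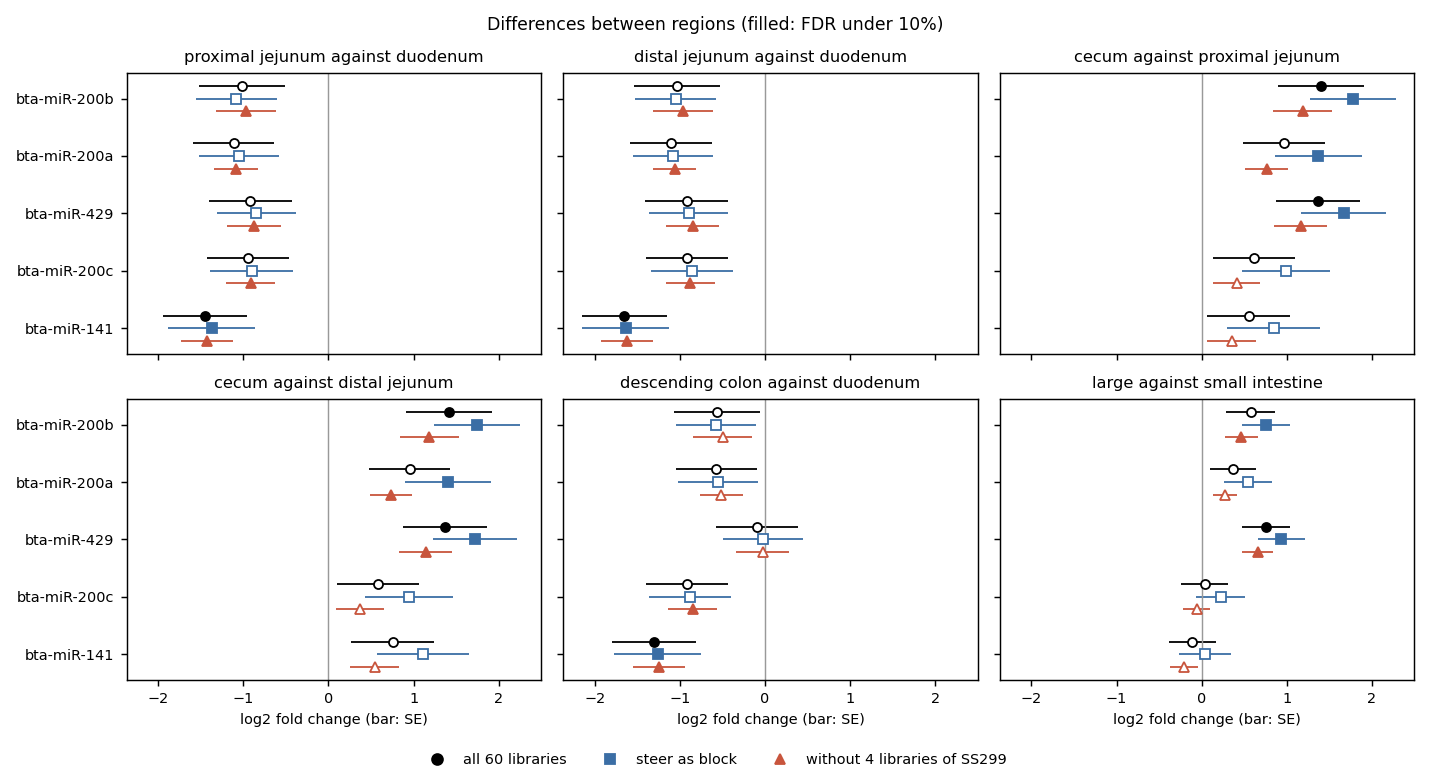
Log2 fold change of each member between regions with its standard error, from the fit to all 60 libraries (black circles), with the steer as a block (blue squares) and without the 4 low libraries of SS299 (red triangles), filled where the FDR was under 10%. All 5 members lie below 0 in the jejunum against the duodenum and above 0 in the cecum against the jejunum, and the filled points are more numerous without SS299.

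Ratios between members of the same library do not depend on how libraries are scaled, and they separated the members further. They are given as descriptions over the 10 steers, with no test. The bta-miR-200a to bta-miR-429 ratio was lower in the large than in the small intestine in 10 of 10 steers, by -0.41 ± 0.25 on the log2 scale (SD). It fell from a median of 1.75 in the duodenum to 1.16 in the cecum and 1.06 in the descending colon. These miRNAs are neighbours in 1 cluster and have different seeds.

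Pairs that share a seed but lie in different clusters also shifted. bta-miR-200b relative to bta-miR-200c was higher in the large intestine in 9 of 10 steers (0.58 ± 0.37), and bta-miR-429 relative to bta-miR-200c also in 9 of 10 (0.67 ± 0.51). The median of the bta-miR-200b to bta-miR-200c ratio was 6.87 in the duodenum and 12.5 in the cecum. For the other seed, bta-miR-200a relative to bta-miR-141 was higher in the large intestine in 8 of 10 (0.45 ± 0.52). Within a cluster, bta-miR-200b relative to bta-miR-200a was higher in 8 of 10 (0.32 ± 0.29).

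Smaller differences were seen for bta-miR-200b relative to bta-miR-429, with the same cluster and seed (-0.10 ± 0.34, higher in 3 of 10), and for bta-miR-141 relative to bta-miR-200c of the other cluster (-0.19 ± 0.59, higher in 3 of 10). Without SS299 the 7 mean differences were between -0.43 and 0.73 and none changed sign. bta-miR-200b relative to bta-miR-200c was then higher in 9 of 9.

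**Figure D4:**
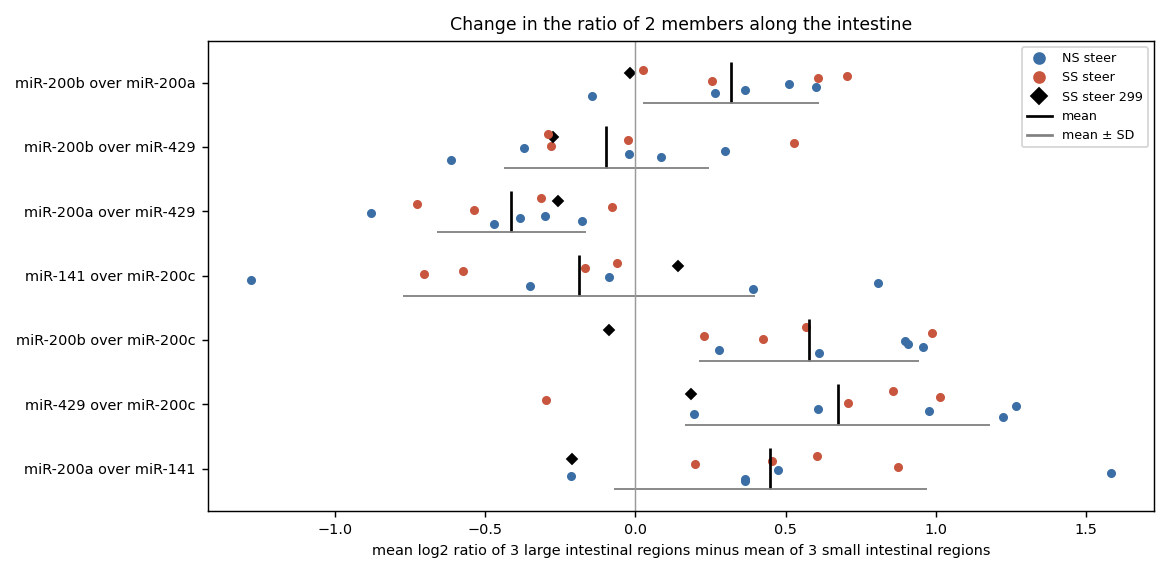
Mean log2 ratio of a pair of members in the 3 large intestinal regions minus that in the 3 small intestinal regions, with 1 point per steer (NS blue, SS red, SS299 black diamond), the mean as a vertical line and the SD as a horizontal line. All 10 points lie below 0 for bta-miR-200a over bta-miR-429, and 9 of 10 lie above 0 for both bta-miR-200b and bta-miR-429 over bta-miR-200c.

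SS and NS steers were compared in each region to ask whether the family differs with shedding. No member passed the FDR of 10% in any region in edgeR's quasi-likelihood test, in its exact test or in DESeq2. Of the 30 tests, 1 had an unadjusted p under 0.05. The share of all miRNAs that passed was low as well, with 0% in the descending and 0.898% in the spiral colon, 0.292% for the cecum, 0.592% and 0.282% for distal and proximal jejunum, and 0.293% for the duodenum.

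The lowest p was that of bta-miR-200c in the cecum. The NS steers were at 869, 251, 298, 432 and 53.0 CPM, and the SS steers at 955, 517, 739, 1439 and 847 CPM. NS108 overlapped the SS group and the other 4 NS steers were below all SS steers. The log2 fold change was 1.08 (SE 0.42, unadjusted p = 0.0234, adjusted p = 0.463 in edgeR), and it was 0.89 without SS299 (adjusted p = 0.504). In the cecum bta-miR-141 was at 0.83 (SE 0.50), bta-miR-200a at 0.66 (SE 0.38), bta-miR-200b at 0.57 (SE 0.47) and bta-miR-429 at -0.07 (SE 0.45).

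bta-miR-429 in the proximal jejunum was the only case in which the groups did not overlap. The NS steers were at 559, 755, 555, 884 and 528 CPM, and the SS steers at 322, 159, 459, 2.18 and 370 CPM. Of all miRNAs tested in that region, the groups of 1.13% did not overlap, against 1.17% in the cecum, 0.888% in the distal jejunum, 0.599% in the spiral colon, 0.587% in the duodenum and 0% in the descending colon. The log2 fold change was -1.22 (SE 0.75, adjusted p = 0.505), and -0.90 (SE 0.34, adjusted p = 0.462) without SS299. bta-miR-141 (-0.998), bta-miR-200a (-0.97), bta-miR-200b (-0.61) and bta-miR-200c (-0.46) had SEs of 0.77 to 0.89, and SS299 was the lowest steer for each. Without it they were at -0.67, -0.64, -0.29 and -0.14.

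In the other regions the log2 fold changes lay between -1.09 (bta-miR-429) and -0.38 in the descending colon, between -0.42 (bta-miR-429) and 0.43 (bta-miR-200c) for the spiral colon, between -0.13 and 0.74 (bta-miR-200b) for the distal jejunum, and between -0.75 (bta-miR-429) and 0.13 for the duodenum. The SE was 0.27 to 0.33 in the spiral colon, the region without low libraries, and 0.51 to 0.84 in the other 3. Without SS299 the log2 fold changes lay between -0.79 (bta-miR-429) and -0.07 in the descending colon, between -0.30 (bta-miR-429) and 0.53 (bta-miR-200c) for the spiral colon, between 0.15 and 1.02 (bta-miR-200b, SE 0.33, adjusted p = 0.324) for the distal jejunum, and between -0.43 (bta-miR-429) and 0.44 (bta-miR-141) for the duodenum, and no member passed. At this spread a change of about 1 on the log2 scale could not have been told from none in most regions.

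With the counts of the 6 regions summed per steer, no member passed either (0.583% of all miRNAs did). The values were -0.49 (SE 0.24, adjusted p = 0.535) for bta-miR-429, 0.30 (SE 0.19, adjusted p = 0.679) for bta-miR-200c, 0.10 for bta-miR-200b, -0.10 for bta-miR-200a and -0.01 for bta-miR-141. Without SS299 bta-miR-429 was at -0.33 (SE 0.19, adjusted p = 0.569) and bta-miR-200c at 0.43 (SE 0.14, adjusted p = 0.239). The difference between SS and NS did not vary detectably between regions, with an adjusted p of 0.96 for each member in edgeR and 0.994 without SS299. There 0% of the miRNAs passed and 11 had an unadjusted p under 0.05.

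Of the 7 ratios, those with bta-miR-429 kept the same direction between SS and NS in all regions, and the others did not. The bta-miR-429 to bta-miR-200c ratio was lower on average in SS in all 6 regions, by -0.29 in the distal jejunum to -1.11 in the cecum on the log2 scale, and by -0.24 to -1.07 without SS299. In the cecum the groups did not overlap (NS 0.94 to 1.79, SS -0.22 to 0.84), the only such case among the 7 ratios and 6 regions. Without SS299 the groups of bta-miR-141 over bta-miR-200c in the cecum did not overlap either (-0.43). The share of non-overlapping groups over all pairs of miRNAs was not taken, so these cases have no background. For single miRNAs it was 1.17% in the cecum. The bta-miR-200b to bta-miR-429 ratio was higher in SS in all 6 regions, by 0.26 to 0.61, with overlapping groups in each, and by 0.099 to 0.63 without SS299. For bta-miR-200a to bta-miR-429 the ratio was higher by 0.0020 to 0.63, and by 0.023 to 0.68 without SS299. These are descriptions, since the 6 regions share the same steers and the ratios share members.

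**Figure D5:**
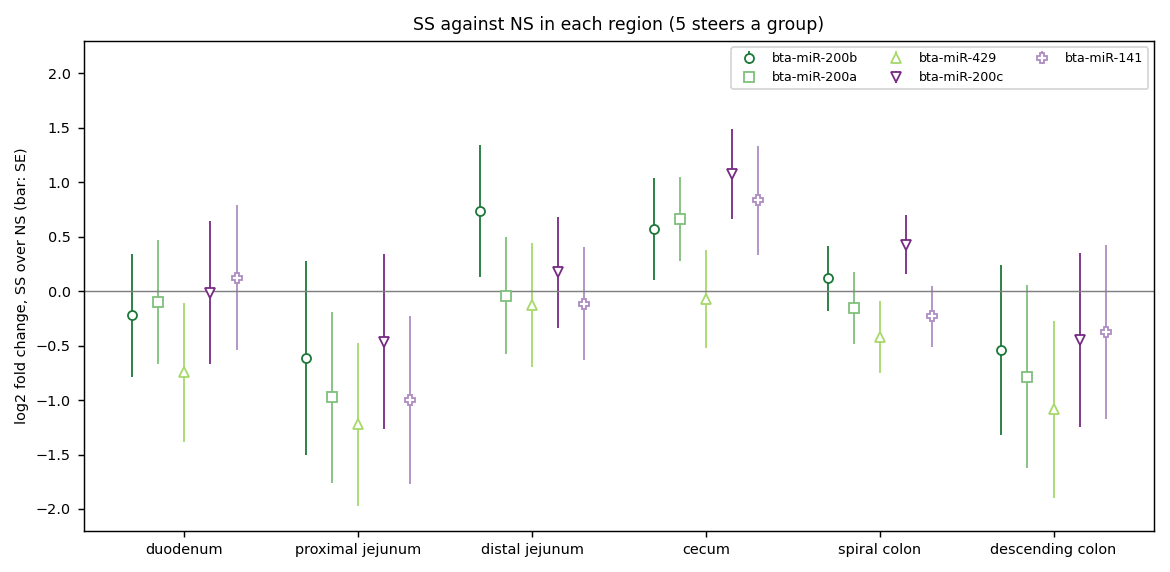
Log2 fold change of SS over NS steers for each member in each region with its standard error (5 steers a group), from edgeR's quasi-likelihood fit of that region. No value passed the FDR of 10%, and the errors are smallest in the spiral colon.

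Steers of 1 phenotype did not differ detectably in the level of any member over their 6 regions. The adjusted p was 0.193 for bta-miR-200b, 0.323 for bta-miR-429, 0.494 for bta-miR-200a, 0.624 for bta-miR-200c and 0.868 for bta-miR-141 in edgeR, with none under 0.05 before adjustment, whereas 40.2% of all miRNAs passed. Without the 4 low libraries it was 0.467 to 0.801. Relative to the median of each region, the summed level of NS165 was below it in all 6 regions and that of NS108, NS242 and SS310 above it in 5. Besides SS299, low libraries were the cecum of NS745 (1296 CPM summed), the descending colon of SS274 (1450 CPM) and the proximal jejunum of SS287 (2260 CPM). SS274 was at the same time the highest steer in the duodenum (26365 CPM) and SS287 in the distal jejunum (10701 CPM).

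The members moved together from library to library. Over the 60 libraries, Pearson's r of log2(CPM + 1) between pairs of members was 0.880 to 0.970 (median 0.939, 10 pairs), and 0.60 to 0.876 (median 0.795) without the 4 low libraries. The libraries share steers, regions and depth, so these values are descriptions. Among the 381 miRNAs compared, those most like the family were bta-miR-375 (mean r with the 5 members 0.915), bta-miR-182 (0.900), bta-miR-183 (0.851), bta-miR-194 (0.831) and bta-miR-192 (0.803). All 5 belong to the list of other epithelial miRNAs, which was chosen with earlier results of these data known. By Spearman's rank correlation bta-miR-194 was at 0.494 (rank 19) and bta-miR-192 at 0.410 (rank 47). Without the 4 libraries the order was bta-miR-182 (0.734), bta-miR-375 (0.713), bta-miR-183 (0.696), bta-miR-669 (0.678) and bta-miR-148a (0.654), while bta-miR-194 and bta-miR-192 were at 0.574 and 0.559.

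The miRNAs least like the family were bta-miR-365-5p (-0.440), bta-miR-100 (-0.435) and bta-miR-2284h-5p (-0.420). Of these, bta-miR-365-5p and bta-miR-2284h-5p had means of only 0.72 and 1.08 CPM. That is near the floor of 3 counts, so their values say little, while bta-miR-100 had a mean of 5155 CPM. The 3 values rested on SS299 in part: without its 4 libraries they were at -0.171, 0.147 and -0.015 in the order first given. bta-miR-143, the most abundant smooth muscle miRNA, then had the lowest value of all (-0.554, against -0.181 with every library). The other 4 smooth muscle miRNAs were at -0.391 to -0.486 without the 4 libraries, the endothelial bta-miR-126-3p and bta-miR-126-5p at 0.424 and 0.536, and the 5 leukocyte miRNAs at 0.139 to 0.375.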

How the data were processed

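The authors trimmed and quality-filtered single-end reads of TruSeq small RNA libraries and mapped them onto cattle miRNAs in sRNAtoolbox, default settings. The submitters' processing notes name Bowtie and edgeR, while build and miRNA database release were not given in the sources used here. Deposited values, per the authors' table, were raw counts per miRNA and library, not normalized, for 608 miRNAs and 60 libraries; 5 miRNAs were at 0 in all of them.

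CPM was the count divided by the library total. edgeR 4.0.16 (R 4.3.3) with TMM scaling tested the counts by the quasi-likelihood F test with Benjamini-Hochberg adjustment and an FDR of 10%, the FDR and filter following the study's methods. The filter kept miRNAs whose CPM exceeded 1 in 3 or more steers of either phenotype (in 1 region or more for fits to all 60 libraries). Each region was fitted alone for SS against NS, and regions were compared in a fit of 12 groups. A standard error is the log2 fold change divided by the square root of F. The test was checked on simulated data. Intervals are exact Poisson intervals at 95% and, like the floor of 3 counts, cover counting error only, since reads carried no molecular identifiers. Ratios and correlations used CPM and log2(CPM + 1).

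The steer number in the labels marks 1 animal, so it pairs libraries across regions. Deviations from the group means correlated at 0.137 on average within a steer (150 pairs, 116 positive) and at -0.027 between steers (1620 pairs). Other settings tried were DESeq2 1.42.0, edgeR's exact test, other scalings, no filter, a steer block, thinning to 535373 counts, and leaving out each steer, the 2 deepest libraries or, chosen after seeing the data, the 4 low libraries of SS299. All members are named in every comparison, beside the 5 miRNAs most like them, the 3 least like them, and members of 8 lists of cell type markers. The members and lists were chosen with earlier results of these data known. Sequences and coordinates were not used here, and names of neighbouring genes come from the RefSeq annotation of ARS-UCD2.0.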

Additional observations from a re-analysis of the deposited data

Results flagged for a closer look

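Each member was looked at in the 12 groups of 5 steers on the log2(CPM + 1) scale, and a steer was singled out where its gap to the next steer took more than 0.71 of the group's range. Of 60 groups examined 15 passed, and 11 of these were SS299. Chance gives about 1 in 20 for a single group, but the 60 are 12 sets of libraries read through 5 correlated members, so that 1 low library counts up to 5 times and the number is no test. The fraction of the range for SS299 as the lowest steer was 0.785 for bta-miR-200b in the distal jejunum. For bta-miR-200a it was 0.839 in the distal and 0.841 in the proximal jejunum, and 0.736 in the duodenum. For bta-miR-429 it was 0.788 in the proximal and 0.887 in the distal jejunum. For bta-miR-200c it was 0.807 in the duodenum and 0.796 in the distal jejunum, and for bta-miR-141 it was 0.714 in the distal and 0.880 in the proximal jejunum, and 0.739 in the duodenum. In the descending colon SS299 did not pass, where SS274 was the next lowest steer.

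The other 4 cases were bta-miR-200a in the proximal jejunum of NS242, the highest NS steer (0.755, 1314 CPM), bta-miR-200a in the spiral colon of NS165, the lowest NS steer (0.83, 387 CPM), bta-miR-429 in the same library (0.739, 305 CPM), and bta-miR-429 in the spiral colon of SS310, the lowest SS steer (0.778, 359 CPM).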

How the results depend on the processing

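No SS against NS call was made for any member under any alternative. Between regions, scaling by library totals alone left 0 members past the FDR in every comparison. With no filter 0 passed in the cecum against either part of the jejunum, in the proximal jejunum against the duodenum and in the descending colon against the duodenum. After thinning to the smallest library 0 passed in the descending colon against the duodenum and in the cecum against the distal jejunum, and 1 in the cecum against the proximal jejunum. With the steer as a block 4 members passed in the F test over regions and 2 in the large against the small intestine. Without the 4 low libraries of SS299 the counts were 5 in the F test over regions, 5 in either part of the jejunum against the duodenum, 2 in the descending colon against the duodenum 2 in the large against the small intestine and 1 in the cecum against the duodenum, and the same numbers passed with the block and without these libraries. Without each steer in turn, the count ran from 0 to 5 in the F test and in either part of the jejunum against the duodenum, and from 0 to 3 in the cecum against either part of the jejunum, in the descending colon against the duodenum and in the large against the small intestine, and from 0 to 1 in the cecum against the duodenum. The cause of these shifts was not tested. The block changed no other call beside those given with the results.

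Changes of sign were confined to log2 values that had not passed. SS against NS was 0.017 with DESeq2, 0.017 with RLE factors and 0.036 by library totals for bta-miR-141 in summed counts, and for bta-miR-200c in the duodenum 0.0071 with DESeq2, 0.0076 with RLE factors, 0.11 by totals and 0.048 with all 60 libraries in one fit. By totals it was 0.014 for bta-miR-141 and 0.028 for bta-miR-200a in the spiral colon, 0.096 for bta-miR-200a in the duodenum and 0.18 for bta-miR-429 in the cecum. Between regions the large against the small intestine was 0.044 with the block for bta-miR-141, and for bta-miR-200c -0.17 by totals, -0.034 thinned, -0.0063 without the 2 deepest libraries, -0.060 without the 4 libraries and -0.080 with the block and without them. The descending against the spiral colon was 0.11 without the 4 libraries for bta-miR-141 and, with the block as well, 0.19 for bta-miR-141, 0.074 for bta-miR-200a and 0.11 for bta-miR-429, and 0.027 by totals for bta-miR-200a. The cecum against the duodenum was with the block 0.32 for bta-miR-200a and 0.089 for bta-miR-200c. The descending colon against the duodenum was 0.075 for bta-miR-429 with the block and without the 4 libraries. The distal against the proximal jejunum was for bta-miR-200a -0.036 with the block, -0.0063 thinned and -0.037 with the block and without the 4 libraries. For bta-miR-200b it was 0.032 with the block, 0.033 by totals, 0.017 thinned, 0.0028 without the 4 libraries and 0.037 with the block as well. For bta-miR-429 it was 0.015 by totals and 0.023 without the 4 libraries. The mean r of bta-miR-100 with the members was 0.147 without the 4 libraries.

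Leaving out each steer in turn also turned signs of SS against NS. In summed counts the range was -0.11 to 0.091 for bta-miR-141, -0.18 to 0.050 for bta-miR-200a and -0.013 to 0.25 for bta-miR-200b. In the duodenum it was -0.29 to 0.44 for bta-miR-141, -0.26 to 0.23 for bta-miR-200a, -0.55 to 0.099 for bta-miR-200b and -0.34 to 0.34 for bta-miR-200c. In the distal jejunum it was -0.41 to 0.15 for bta-miR-141, -0.22 to 0.25 for bta-miR-200a and -0.41 to 0.15 for bta-miR-429, and in the cecum -0.33 to 0.19 for bta-miR-429. In the spiral colon it was -0.49 to 8.8e-04 for bta-miR-141, -0.36 to 0.011 for bta-miR-200a and -0.047 to 0.31 for bta-miR-200b. Between regions it was -0.25 to 0.034 for bta-miR-141 and -0.062 to 0.13 for bta-miR-200c in the large against the small intestine, and -0.29 to 0.13 for bta-miR-429 in the descending colon against the duodenum. In the descending against the spiral colon it was -0.24 to 0.11 for bta-miR-141, -0.37 to 0.031 for bta-miR-200a and -0.44 to 0.011 for bta-miR-429. In the distal against the proximal jejunum it was -0.12 to 0.098 for bta-miR-200a, -0.30 to 0.27 for bta-miR-200b, -0.16 to 0.13 for bta-miR-200c and -0.11 to 0.10 for bta-miR-429.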
